A study of Mus musculus with 491 samples.

Results

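Six2, Six4, Eya1, Eya2, Eya4, Pax2, Pax8 and Dach1 encode regulators of the cranial placodes, the thickenings of head ectoderm from which the inner ear and the cranial sensory ganglia form. The 8 genes were taken by symbol from the 19494 genes with a usable row, each had 1 row, and all 8 passed the filter on low values. Their values came from 491 single cells of mouse embryos at E10.5, taken from the dissected otic vesicle with the tissue around it and sorted for tdTomato fluorescence. Every embryo had the genotype Pax2-Cre/+;Ai14-tdTomato/+, in which Cre made under Pax2 control switches on the red reporter for good in a cell and in all of its progeny. No group without Cre or with another genotype was analysed here, so the comparisons are between classes of cells within these embryos. The cells fell into replicate 1 (237 cells) and replicate 2 (254 cells), each on 3 plates. The sources used here do not say whether replicates are separate embryos, litters or sorts, so p-values measure the spread between these samples, which may be technical.

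Six-family proteins bind DNA through a homeodomain, and Eya proteins, which are phosphatases that do not bind DNA themselves, join them as coactivators. Dach proteins act with Six-family and Eya proteins, mostly as corepressors, and Pax2 and Pax8 are paired-domain factors that are among the first genes switched on in the otic placode. In the mouse, Eya1 is needed for the otic vesicle to grow and to give rise to the neurons of its ganglion. The question followed here was which of these genes neuroblasts and neurons still held and which were a feature of the epithelium.

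Classes were made by clustering the cells on marker genes, none of which was one of the 8 genes or a relative of them. Early neuroblast-like cells numbered 40, differentiating neuron-like cells 52 and otic epithelium-like cells 145. The other classes were neural tube progenitor-like (108 cells), surface ectoderm-like (40) and mesenchyme-like cells (23). A neuronal cluster, called cluster 9 (35 cells), and cluster 10 (48 cells), which mixed neuronal and neural tube markers, kept their numbers. Among their 10 leading genes stood 2 and 3 markers of another list. The early neuroblast-like and neuron-like clusters and a neural tube progenitor-like cluster also had 1 such marker each. Of their own lists early neuroblast-like cells had 1 marker there and neuron-like cells 3. The defining markers followed the names. Neurod1, a proneural factor, was found in 100% of early neuroblast-like, 98.1% of neuron-like and 12.41% of otic epithelium-like cells, while Stmn2, a gene of growing axons, was found in 32.5%, 100% and 9.66% of the same classes. Sox10, an otic and neural crest factor, was found in 7.5%, 7.69% and 80.0% of them. A gene is called found here in a cell with an FPKM of at least 1, and the median number of genes found was 4308 in early neuroblast-like, 4676 in neuron-like and 4760 in otic epithelium-like cells.

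A technical feature touches every share given below. At the same column of the plates, rare transcripts were shared one way between 19 pairs of row positions in both replicates. The median was 7.2% of the value in the cell called the source. Some pairs joined rows of different plates. Source and transfer are names used here for this pattern, whose cause was not tested. A source well of this kind was present for 337 cells and absent for 154. Shares are therefore also given for cells with no source well, and after a correction that set to 0 the values that a source could account for. The correction also removes some of a cell's own transcripts. Levels are means of log2(FPKM + 1) over the cells of a class in a replicate, differences are between such means, and a difference was called at a limma p-value, adjusted over all 10197 genes tested, below 0.05. The classes were built from genes of the same cells, which the p-values do not allow for.

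Eya2 was the member with the largest difference between the neuronal classes and the epithelium. Eya2 encodes an Eya coactivator (ENSMUSG00000017897, chromosome 2, 165595032 to 165771727, plus strand, mm10). In early neuroblast-like cells it ranged from 0 to 543 FPKM with a median of 184, and in neuron-like cells from 0 to 337 FPKM with a median of 145. In otic epithelium-like cells it ranged from 0 to 124 FPKM with a median of 0. Nearly every neuroblast and neuron thus held Eya2 RNA, and most epithelial cells were listed without it. The shares of cells in which it was found were 97.5% in early neuroblast-like cells (39 of 40, 95% exact binomial interval 86.8 to 99.9), 92.3% in neuron-like cells (48 of 52, 81.5 to 97.9) and 19.3% in otic epithelium-like cells (28 of 145, 13.2 to 26.7). Intervals of this kind, here and below, cover counting error only.

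On the log2 scale, Eya2 averaged 6.35 and 6.69 in the early neuroblast-like cells of replicates 1 and 2, against 0.73 and 0.82 in otic epithelium-like cells. The replicates of the 2 classes did not overlap, and the difference of 5.74 (SE 0.58, n = 2 replicates, limma adjusted p = 6.74e-06) was positive on 6 of 6 plates. Of the 8 genes 1 was called higher in early neuroblast-like cells (Eya2) and 1 lower (Pax8), where 1.27% of all genes tested were higher, 3.58% lower and 4.84% called in either direction. The median difference was -0.28 over the 8 genes and -0.13 over all genes tested. In neuron-like cells Eya2 averaged 6.15 and 6.56, which was 5.58 above the epithelium (SE 0.58, adjusted p = 1.99e-06, 6 of 6 plates). Here 2 of the 8 genes were called higher (Eya2 and Six4) and 0 lower, where 5.92% of all genes were higher, 7.69% lower and 13.6% called in all, and the median difference was -0.27 over the 8 genes and -0.11 over all. Between neuron-like and early neuroblast-like cells Eya2 differed by -0.16 (SE 0.58, adjusted p = 0.931), which was within the spread between replicates.

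The 28 otic epithelium-like cells with Eya2 were set beside the 117 without it. Neurod1 was found in 12 of these 28 cells (42.9%, 24.5 to 62.8) and in 6 of the 117 otic epithelium-like cells without Eya2 (5.13%, 1.90 to 10.8). Stmn2 was found in 8 of 28 cells with Eya2 (28.6%, 13.2 to 48.7) and in 6 of 117 without it (5.13%). Dll1, a Notch ligand of early neuroblasts, was found at the same share on both sides, in 6 of 28 cells with Eya2 (21.4%) and in 25 of 117 without it (21.4%). Among epithelial cells with no source well Eya2 was found in 13.04% (6 of 46), and neither Neurod1 nor Stmn2 was found in any of these 6 cells, while each was found in 1 of the 40 such cells without Eya2 (2.5%). After the correction Eya2 was found in 9.66% of epithelial cells (14 of 145). In neural tube progenitor-like cells the shares were 18.5% as deposited, 7.32% with no source well and 7.41% after the correction. In early neuroblast-like cells with no source well Eya2 was found in 100% (12 of 12), and the difference from the epithelium among such cells was 7.02 (limma adjusted p = 0.0021).

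**Figure D1:**
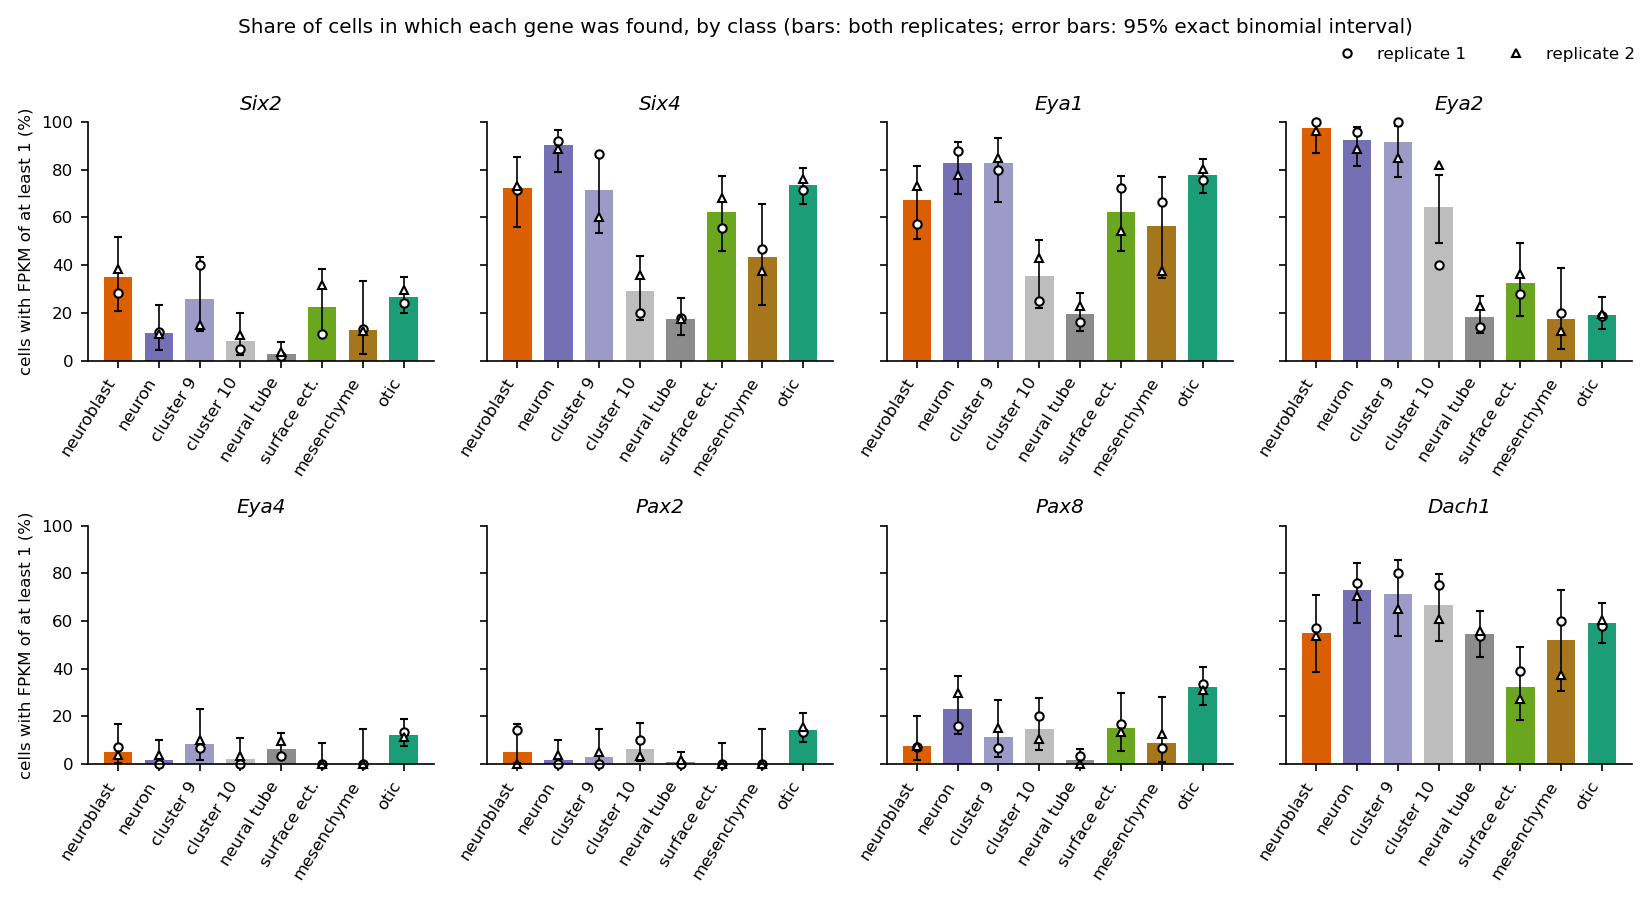
Percentage of cells in which each gene reached 1 FPKM, by class, with bars for both replicates together, error bars for the 95% exact binomial interval, and open circles and triangles for replicates 1 and 2. Eya2 is near 100% in the neuroblast and neuron bars and at 19.3% in the otic bar, Six4, Eya1 and Dach1 stand between 55.0% and 90.4% in all 3, and Pax2, Eya4 and Pax8 have their highest bar in the otic class.

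Eya1 (ENSMUSG00000025932, chromosome 1, 14168954 to 14310235, minus strand), the Eya gene best known for its role in the ear, was found at like shares on both sides. It was found in 67.5% of the early neuroblast-like class (50.9 to 81.4), 82.7% of neuron-like cells (69.7 to 91.8) and 77.9% of otic epithelium-like cells (70.3 to 84.4). The median was 11.41 FPKM in early neuroblast-like, 24.3 in neuron-like and 37.4 in otic epithelium-like cells, and the highest cell reached 183, 117 and 298 FPKM in these classes. Its log2 level in early neuroblast-like cells was 2.29 in replicate 1 and 4.14 in replicate 2, against 4.01 and 4.39 in the epithelium. The low value came from the 14 neuroblast cells of replicate 1, and the difference of -0.99 (SE 0.53, adjusted p = 0.392) did not pass the test. In neuron-like cells Eya1 differed from the epithelium by -0.20 (SE 0.53, adjusted p = 0.871), with 0.14 in replicate 1 and -0.55 in replicate 2.

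Eya4, another Eya coactivator (ENSMUSG00000010461, chromosome 10, 23102963 to 23350786, minus strand), was found in few cells anywhere. The shares were 5.00% of early neuroblast-like cells (2 of 40), 1.92% of neuron-like cells (1 of 52) and 12.41% of otic epithelium-like cells (18 of 145, 7.53 to 18.9), and it was found in 0 of 40 surface ectoderm-like and 0 of 23 mesenchyme-like cells, which allows shares of up to 8.81% and 14.8% by the same interval. Its level differed by -0.42 between neuron-like and otic epithelium-like cells (SE 0.14, adjusted p = 0.0571, negative on 6 of 6 plates) and by -0.31 between early neuroblast-like cells and the epithelium (SE 0.14, adjusted p = 0.3, 6 of 6 plates). Neither passed the threshold as tested. The neuron difference passed it under 6 of the 12 other settings, with adjusted p-values between 0.00512 and 0.0464. Eya4 was also found in 6.48% of neural tube progenitor-like cells (7 of 108). With no source well the order turned. Eya4 was then found in 4.35% of otic epithelium-like cells (2 of 46) and 7.32% of neural tube progenitor-like cells (3 of 41).

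Six4 (ENSMUSG00000034460, chromosome 12, 73099609 to 73113456, minus strand), a homeodomain partner of the Eya proteins, was highest in neurons. The share was 72.5% in early neuroblast-like cells (56.1 to 85.4), 90.4% in neuron-like cells (79.0 to 96.8) and 73.8% in otic epithelium-like cells (65.8 to 80.7), and the medians were 11.44, 28.1 and 9.25 FPKM in these classes. Its log2 level was 4.46 and 4.37 in neuron-like cells of replicates 1 and 2, against 2.87 and 3.05 in otic epithelium-like cells. The replicates did not overlap, and neuron-like cells were higher by 1.46 (SE 0.40, adjusted p = 0.0194, 6 of 6 plates). That call was lost with a pseudocount of 0.1 (2.12, adjusted p = 0.0504), with the log2 of the mean FPKM (1.17, adjusted p = 0.118), with classes cut by marker thresholds (0.28, adjusted p = 0.78) and in cells with no source well (1.33, adjusted p = 0.672).

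Early neuroblast-like cells held Six4 at 2.91 and 3.28, which differed from the epithelium by 0.13 (SE 0.40, adjusted p = 0.937). The step to neurons gave a difference of 1.33 over early neuroblast-like cells (SE 0.40, adjusted p = 0.0637, 5 of 6 plates). Neuron-like cells were higher than early neuroblast-like cells for 3.99% of the genes tested, lower for 1.65% and called in either direction for 5.64%, and 0 of the 8 genes were among them by limma, with 4 at an unadjusted p below 0.05. Under 4 other settings Six4 passed the threshold in this step, with differences of 1.33 to 1.47. Set against cluster 9, in a comparison chosen after the data were seen, neuron-like cells held 1.54 more Six4 (SE 0.40, adjusted p = 0.0549), and 2.11% of all genes and 0 of the 8 were called there, with 2 of the 8 at an unadjusted p below 0.05.

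Six2 (ENSMUSG00000024134, chromosome 17, 85684277 to 85688274, minus strand), another Six-family homeodomain gene, was found in a minority of cells in every class. The shares were 35.0% of early neuroblast-like cells (20.6 to 51.7), 11.54% of neuron-like cells (4.35 to 23.4) and 26.9% of otic epithelium-like cells (19.9 to 34.9). The highest cell held 32.1 FPKM in early neuroblast-like, 24.0 in neuron-like and 135 in otic epithelium-like cells. Neuron-like cells lay below the others in both replicates, with 0.36 and 0.35 on the log2 scale, against 1.03 and 1.33 in early neuroblast-like and 1.11 and 1.31 in otic epithelium-like cells. Neither the difference of -0.83 from neuroblasts (SE 0.33, adjusted p = 0.176) nor that of -0.85 from the epithelium (SE 0.33, adjusted p = 0.103, negative on 6 of 6 plates) passed the test. Of the 12 early neuroblast-like cells with no source well 2 held Six2 (16.7%).

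Dach1 (ENSMUSG00000055639, chromosome 14, 97786853 to 98169765, minus strand), which encodes a partner of Six-family and Eya proteins, was found in every class, from 32.5% of surface ectoderm-like to 73.1% of neuron-like cells. The shares were 55.0% of early neuroblast-like (38.5 to 70.7), 73.1% of neuron-like (59.0 to 84.4), 54.6% of neural tube progenitor-like (44.8 to 64.2) and 59.3% of otic epithelium-like cells (50.8 to 67.4). Its levels in neuron-like cells were 3.16 and 2.75, against 2.11 and 2.56 in the epithelium, a difference of 0.62 (SE 0.45, adjusted p = 0.444). From early neuroblast-like to neuron-like cells the difference was 1.096 (SE 0.45, adjusted p = 0.191, positive on 6 of 6 plates). In cells with no source well Dach1 was found in 2 early neuroblast-like cells of 12 (16.7%) and in 78.6% of neuron-like cells (11 of 14).

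**Figure D2:**
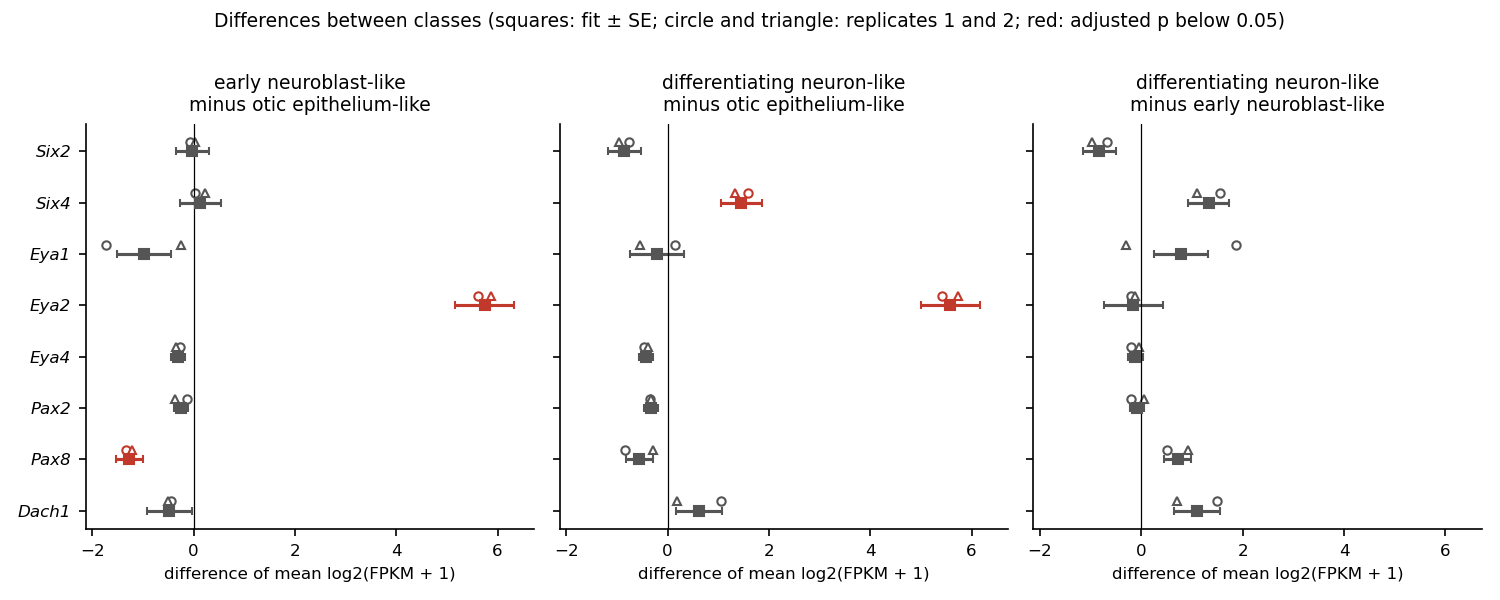
Difference of the mean log2(FPKM + 1) between classes for the 8 genes, with squares for the fit ± SE, open circles and triangles for replicates 1 and 2, and red for an adjusted p below 0.05. Eya2 stands at 5.74 and 5.58 against the epithelium, Six4 at 1.46 in neurons, Pax8 at -1.27 in neuroblasts, and no gene is red between neuron-like and early neuroblast-like cells.

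Pax8 (ENSMUSG00000026976, chromosome 2, 24420560 to 24475599, minus strand), the paired-domain gene that precedes Pax2 in the otic placode, fell in early neuroblasts. It was found in 3 early neuroblast-like cells of 40 (7.5%, 1.57 to 20.4), 23.1% of neuron-like cells (12 of 52, 12.53 to 36.8) and 32.4% of otic epithelium-like cells (47 of 145, 24.9 to 40.7). The log2 level was 0.24 and 0.29 in early neuroblast-like cells of replicates 1 and 2, against 1.57 and 1.495 in the epithelium. The replicates did not overlap, and the difference was -1.27 (SE 0.26, adjusted p = 0.00593, negative on 6 of 6 plates). In cells with no source well it was -1.29 (adjusted p = 0.306), with Pax8 found in 0 of 12 early neuroblast-like cells.

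Neuron-like cells held Pax8 at 0.74 and 1.21, between the other classes. The difference from the epithelium was -0.56 (SE 0.26, adjusted p = 0.192, negative on 4 of 6 plates), and that from early neuroblast-like cells was 0.71 (SE 0.26, adjusted p = 0.132, positive on 5 of 6 plates). Neither passed the test. Of the neuron-like cells with no source well, 7.14% (1 of 14) held Pax8, and after the correction 13.5% of all neuron-like cells did. After the correction the difference from the epithelium was -0.73 (adjusted p = 0.0356).

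Pax2 (ENSMUSG00000004231, chromosome 19, 44756045 to 44837871, plus strand) is the gene whose control elements drove Cre, and the reporter marks cells in which Cre was made at some time or in an ancestor. The purity of the sort and the reporter's own RNA were not analysed here. Pax2 RNA was found in 29 of the 491 sorted cells (5.91%, 3.99 to 8.38), in 14 cells of replicate 1 and 15 of replicate 2. Of these 29 cells, 21 were otic epithelium-like, 3 lay in cluster 10, 2 were early neuroblast-like, and 1 each was neuron-like, in cluster 9 and neural tube progenitor-like. The epithelium thus held 72.4% of the cells with Pax2 RNA while making up 29.5% of all cells. The share with it was 5.00% in early neuroblast-like cells (0.61 to 16.9), 1.92% in neuron-like cells (0.05 to 10.26), 0.93% in neural tube progenitor-like cells (0.02 to 5.05) and 14.5% in otic epithelium-like cells (9.19 to 21.3).

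Pax2 was found in 0 of 40 surface ectoderm-like and 0 of 23 mesenchyme-like cells, which allows shares of up to 8.81% and 14.8%, although these cells had been sorted on the same reporter. Where it was found, its values were low, with a range of 1.02 to 21.0 FPKM and a median of 2.79. The 2 early neuroblast-like cells held 1.08 and 1.18 FPKM and the neuron-like cell 1.52, while the 21 otic epithelium-like cells ranged from 1.04 to 19.0 with a median of 3.05. At an FPKM of at least 10 it was found in 0.81% of all cells. At such levels a cell listed without Pax2 cannot be told from one that holds a little. The level differed by -0.25 between early neuroblast-like cells and the epithelium (SE 0.14, adjusted p = 0.394, negative on 5 of 6 plates) and by -0.33 between neuron-like and otic epithelium-like cells (SE 0.14, adjusted p = 0.131, 6 of 6 plates). Neither passed the threshold, and the neuron difference passed it without the filter on low values (adjusted p = 0.0141) and with means per plate (adjusted p = 0.0298). Of the cells with no source well 5.84% (9 of 154) held Pax2.

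The 21 otic epithelium-like cells with Pax2 RNA were set beside the 124 epithelial cells without it. Eya1 was found in 95.2% of the otic cells with Pax2 (20 of 21, 76.2 to 99.9) and in 75.0% of the otic cells without it (66.4 to 82.3). Six2 was found in 42.9% of the cells with Pax2 (9 of 21, 21.8 to 65.98) and in 24.2% of those without it (17.0 to 32.7). The intervals overlap for both genes. Pax8, a close relative of Pax2, was found in 33.3% of the otic cells with Pax2 (7 of 21) and in 32.3% of those without it (40 of 124). The pair stood together in 7 otic cells, where 6.81 would hold both if each were drawn independently, so the 61 otic cells with either gene mostly held 1 of them. Oc90, which encodes a protein of the ear stones and marks the nonsensory wall, was found in 38.1% of the otic cells with Pax2 (18.1 to 61.6) and in 60.5% of those without it (51.3 to 69.1). These intervals overlap as well, and other otic markers did not follow Oc90. Lmx1a was found in 85.7% of the otic cells with Pax2 and in 63.7% of those without it. For Tbx1 the shares were 47.6% and 44.4%, and for Sox10 81.0% and 79.8%.

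The epithelium was not uniform for the 8 genes. The otic epithelium-like class joined cluster 0, led by Oc90, Dlx5 and Lmx1a (35 cells), to clusters 2 and 3, led by Wfdc2, Epcam and Cldn6 (110 cells). Epcam and Cldn6 also stood among the leading genes of cluster 0. Oc90 was found in 83 otic epithelium-like cells, more than cluster 0 holds. The comparison of cluster 0 with clusters 2 and 3 was chosen after the data were seen. In it 1.36% of all genes were higher in cluster 0, 0.177% lower and 1.54% called in either direction. Of the 8 genes 2 were called, Pax8 and Dach1, both higher in cluster 0. Pax8 was found in 60.0% of the cells of cluster 0 (21 of 35, 42.1 to 76.1) and in 23.6% of those of clusters 2 and 3 (26 of 110, 16.1 to 32.7). Its log2 level was 3.13 and 2.38 in cluster 0 of replicates 1 and 2, against 0.95 and 1.28 in clusters 2 and 3. The replicates did not overlap, and the difference was 1.64 (SE 0.32, n = 2 replicates, limma adjusted p = 0.00886, positive on 6 of 6 plates).

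Dach1 was found in 88.6% of the cells of cluster 0 (31 of 35, 73.3 to 96.8) and in 50.0% of those of clusters 2 and 3 (55 of 110, 40.3 to 59.7). Its level was 3.46 and 4.46 in cluster 0, against 1.58 and 2.097 in clusters 2 and 3, a difference of 2.12 (SE 0.50, adjusted p = 0.0301, positive on 6 of 6 plates). Both calls were lost with the log2 of the mean FPKM, where Dach1 differed by 1.79 (adjusted p = 0.185) and Pax8 by 1.61 (adjusted p = 0.599), and in cells with no source well, where the differences were 2.68 (adjusted p = 0.581) and 1.36 (adjusted p = 0.737). Cluster 0 held 10 cells with no source well, of which 9 held Dach1 and 6 held Pax8, and of 36 such cells in clusters 2 and 3 Dach1 was found in 12 and Pax8 in 6.

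**Figure D3:**
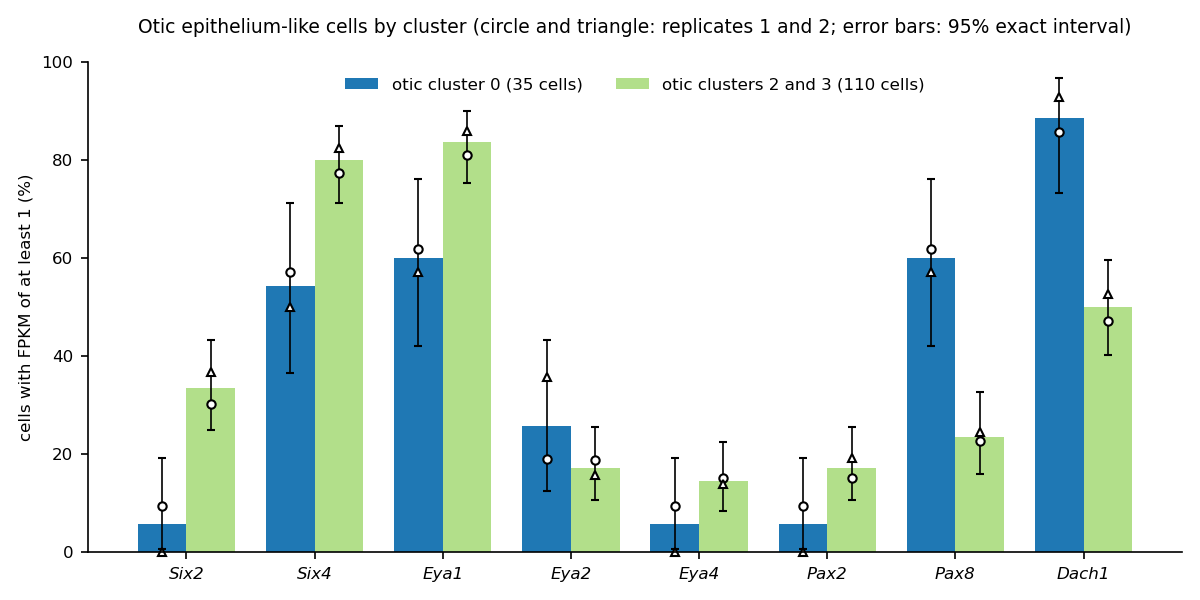
Percentage of otic epithelium-like cells in which each gene reached 1 FPKM, in cluster 0 (35 cells) and in clusters 2 and 3 (110 cells), with 95% exact binomial intervals and open circles and triangles for replicates 1 and 2. Pax8 stands at 60.0% and 23.6% and Dach1 at 88.6% and 50.0%, while the bars of Six2, Six4 and Eya1 are lower in cluster 0.

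The promoters of Dach1 and Pax8 are shown because both genes were higher in the same epithelial cluster, and that of Pax2 because Pax2 control made the reporter line. The 250 bases before a RefSeq start are given for these genes, the 3 members with such a window outside every annotated exon. They are from the GRCm38.p6 table, which held rows for 6 of the 8 members, and the Pax2 window belongs to 1 of its 3 starts, the nearer to the annotated gene start of the 2 whose window overlaps no exon. Capitals mark TAAT, the core that many homeodomains bind, and CANNTG, the E-box of proneural and other helix-loop-helix proteins, read on both strands. The Dach1 window lies at chr14:98169766-98170015 (minus strand), that of Pax8 at chr2:24475600-24475849 (minus strand) and that of Pax2 at chr19:44755502-44755751 (plus strand).
Dach1: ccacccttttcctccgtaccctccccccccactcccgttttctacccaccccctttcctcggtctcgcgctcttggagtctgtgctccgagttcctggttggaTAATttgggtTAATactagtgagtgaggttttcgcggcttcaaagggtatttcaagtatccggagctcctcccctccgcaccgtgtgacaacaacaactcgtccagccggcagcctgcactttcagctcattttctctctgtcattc
Pax8: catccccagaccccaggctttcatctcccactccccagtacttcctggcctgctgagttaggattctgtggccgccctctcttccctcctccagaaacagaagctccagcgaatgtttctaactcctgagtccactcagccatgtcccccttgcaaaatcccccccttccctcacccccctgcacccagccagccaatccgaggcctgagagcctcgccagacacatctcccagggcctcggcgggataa
Pax2: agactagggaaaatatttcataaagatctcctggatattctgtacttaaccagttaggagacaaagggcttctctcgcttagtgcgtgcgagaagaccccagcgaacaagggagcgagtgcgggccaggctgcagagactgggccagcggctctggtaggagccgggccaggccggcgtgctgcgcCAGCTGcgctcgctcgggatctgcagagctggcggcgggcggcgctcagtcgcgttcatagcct
The Dach1 window holds 2 TAAT and 0 CANNTG matches, the Pax8 window holds neither motif, and the Pax2 window holds 1 CANNTG match, the palindrome CAGCTG, and 0 TAAT matches. The other Pax2 window outside exons, chr19:44746351-44746600 (plus strand), holds 0 CANNTG and 1 TAAT matches, so the motifs differ between the starts of this gene. TAAT stands in 54.9% and CANNTG in 66.2% of the 32841 promoter windows of that length that were counted, so a match or its lack is common. The count left out 1 chromosome and windows with an undetermined base.

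Of the other 6 members 5 had a lower mean level in cluster 0, without passing the test. Six2 was found in 5.71% of the cells of cluster 0 (2 of 35) and in 33.6% of those of clusters 2 and 3, with a difference of -1.31 in level (SE 0.33, adjusted p = 0.0520, negative on 6 of 6 plates). Eya1 was found in 60.0% and 83.6% of the same groups and differed by -2.04 (SE 0.54, adjusted p = 0.0637, 6 of 6 plates), and Six4 was found in 54.3% and 80.0% and differed by -1.30 (SE 0.43, adjusted p = 0.186, 6 of 6 plates). In cells with no source well Six4 turned, with 9 of 10 cells in cluster 0 and 26 of 36 in clusters 2 and 3. Pax2 differed by -0.29 (SE 0.15, adjusted p = 0.572), Eya4 by -0.31 (SE 0.17, adjusted p = 0.591) and Eya2 by 0.09 (SE 0.57, adjusted p = 0.988). Split by single genes in place of clusters, the 46 otic cells with Sox10 and no Oc90 held Eya1 in 95.7% (44 of 46) and Six4 in 93.5% (43 of 46), and the 83 otic cells with Oc90 held them in 72.3% and 65.1%. Pax8 was found in 20.0% of the 65 otic cells with Tbx1, a T-box factor that holds back neurogenesis in the otic vesicle, and in 42.5% of the 80 without it (intervals 11.102 to 31.8 and 31.5 to 54.1).

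The other tdTomato-positive classes show how far the members reach outside the ear. In cluster 9, a neuronal cluster, 5.49% of all genes were higher than in the otic epithelium-like cells, 7.45% lower and 12.9% called. Of the 8 genes 2 were called there. Eya2 averaged 6.65 and 5.84 in cluster 9, against 0.73 and 0.82 in the epithelium, a difference of 5.47 (SE 0.58, adjusted p = 3.85e-06, positive on 6 of 6 plates). Pax8 differed by -1.06 (SE 0.26, adjusted p = 0.0105, negative on 5 of 6 plates), a call lost with the log2 of the mean FPKM (-1.85, adjusted p = 0.106) and in cells with no source well (-1.29, adjusted p = 0.191). Eya2 was therefore high in all 3 neuronal groups, which overlapped between replicates at 6.52 ± 0.24 in early neuroblast-like, 6.36 ± 0.29 in neuron-like and 6.25 ± 0.57 in cluster 9 cells (SD, n = 2 replicates).

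Cluster 10, which mixed neuronal and neural tube markers, held Eya2 unevenly. Against the epithelium 3 of the 8 genes were called in cluster 10, where 13.2% of all genes were. Eya2 was found in 40.0% of the cells of replicate 1 (8 of 20, 19.1 to 63.9) and in 82.1% of those of replicate 2 (23 of 28, 63.1 to 93.9). Its level was 2.25 and 4.87, and the difference of 2.78 from the epithelium (SE 0.58, adjusted p = 0.00298, 6 of 6 plates) was 1.52 in replicate 1 and 4.05 in replicate 2. Six4 (-2.12, SE 0.40, adjusted p = 0.00142) and Eya1 (-3.03, SE 0.53, adjusted p = 0.000689) fell in both replicates. In cells with no source well the 3 differences were 3.35 for Eya2 (adjusted p = 0.0734), -2.92 for Six4 (adjusted p = 0.109) and -3.30 for Eya1 (adjusted p = 0.0593), so none was called there.

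Neural tube progenitor-like cells had the lowest level of Six4, Eya1 and Pax8 among the 8 classes. In them 1.44% of all genes were higher than in the epithelium, 4.36% lower and 5.81% called, and 3 of the 8 genes were lower. Six4 averaged 0.48 in both replicates of the neural tube class, against 2.87 and 3.05 in the epithelium (-2.48, SE 0.40, adjusted p = 0.000553). Eya1 averaged 0.59 and 0.69, against 4.01 and 4.39 (-3.56, SE 0.53, adjusted p = 0.000243). Pax8 averaged 0.06 and 0.03, against 1.57 and 1.495 (-1.49, SE 0.26, adjusted p = 0.00116). The replicates of the classes did not overlap for any of these, and all 3 were negative on 6 of 6 plates. Six2 differed by -1.13 there (SE 0.33, adjusted p = 0.0521, negative on 6 of 6 plates) and passed the threshold under 8 of the 11 other settings. The remaining shares were lower in cells with no source well. Six4 was found in 17.6% and Eya1 in 19.4% of all neural tube progenitor-like cells and each in 4.88% (2 of 41) of those with no source well. In cells with no source well the differences were -2.88 for Six4 (adjusted p = 0.285), -3.90 for Eya1 (adjusted p = 0.0584) and -1.29 for Pax8 (adjusted p = 0.472).

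In surface ectoderm-like and mesenchyme-like cells the levels of Six4 and Eya1 lay between those of the neural tube class and the epithelium. Eya4 and Pax2 averaged 0 in both replicates of both classes. Eya2 had its lowest level of the 8 classes in mesenchyme-like cells (0.39 and 0.28) and Dach1 in surface ectoderm-like cells (1.24 and 1.08). Six4 and Eya1 were each found in 62.5% of surface ectoderm-like cells (25 of 40, 45.8 to 77.3), and among the 14 such cells with no source well each was found in 64.3%. Against the epithelium 4.1% of all genes were called in surface ectoderm-like cells, and 0 of the 8 genes were called by limma, with 5 at an unadjusted p below 0.05. Eya1 differed by -1.46 (adjusted p = 0.158) and Dach1 by -1.18 (adjusted p = 0.193). In mesenchyme-like cells, where 2.59% of all genes were higher, 3.55% lower and 6.14% called, 3 of the 8 genes were lower. These were Six4 (-1.67, SE 0.40, adjusted p = 0.0159), Eya1 (-2.02, SE 0.53, adjusted p = 0.0268) and Pax8 (-1.24, SE 0.26, adjusted p = 0.00602), each on 6 of 6 plates. The Eya1 call was lost without the filter on low values (adjusted p = 0.0715) and with the log2 of the mean FPKM (-1.90, adjusted p = 0.153).

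Set in order of level, 6 of the members fell into 3 patterns. Eya2 was high in the neuronal groups, with a gap to cluster 10 (3.56 ± 1.85) and to surface ectoderm-like (1.31 ± 0.38), neural tube progenitor-like (0.79 ± 0.31), otic epithelium-like (0.78 ± 0.06) and mesenchyme-like cells (0.34 ± 0.08). Six4 and Eya1 were shared by neuronal classes and the epithelium, though not by these alone. Surface ectoderm-like cells held Six4 at 2.39 ± 0.04 and Eya1 at 2.74 ± 0.50, and neither difference from the epithelium was called. Six4 was highest in neuron-like cells (4.42 ± 0.06), whose replicates overlapped with no other class, and early neuroblast-like (3.09 ± 0.26), otic epithelium-like (2.96 ± 0.12) and cluster 9 cells (2.88 ± 0.38) overlapped with each other. Eya1 overlapped in otic epithelium-like (4.201 ± 0.26), cluster 9 (4.11 ± 0.42), neuron-like (3.999 ± 0.22) and early neuroblast-like cells (3.21 ± 1.31). Over all cells, with or without a source well, Eya4 (0.45 ± 0.01), Pax2 (0.36 ± 0.02) and Pax8 (1.53 ± 0.05) were highest in the epithelium, with no overlap with the next class. For Pax8 this holds for the epithelium as 1 class. Its level was 3.13 and 2.38 in otic cluster 0, but 0.95 and 1.28 in otic clusters 2 and 3. The latter overlapped with neuron-like cells (0.74 and 1.21). Eya4 stood the other way in cells with no source well. It was found there in 2 of 46 otic epithelium-like and 3 of 41 neural tube progenitor-like cells. For Eya4 and Pax2 the levels in the epithelium are under 1 log2 unit, and no difference of theirs from the epithelium was called as tested. With means per plate, 8 of these differences were called, for Eya4 in neuron-like, cluster 10, surface ectoderm-like and mesenchyme-like cells and for Pax2 in neuron-like, cluster 9, surface ectoderm-like and mesenchyme-like cells, with adjusted p-values from 0.0166 to 0.0414. Six2 and Dach1 stood outside these patterns. Six2 ran down to 0.08 ± 0.08 in neural tube progenitor-like cells, against 1.21 ± 0.14 in the epithelium, and Dach1 ran from 1.16 ± 0.11 in surface ectoderm-like to 3.41 ± 0.50 in cluster 9 cells (SD, n = 2 replicates), with most neighbouring classes overlapping.

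Six-family proteins act with Eya proteins, so the cells in which both were found were counted. At least 1 of Six2 and Six4 stood together with at least 1 of Eya1, Eya2 and Eya4 in 80.0% of early neuroblast-like cells (32 of 40, 64.4 to 90.9), 90.4% of neuron-like cells (47 of 52, 79.0 to 96.8), 12.04% of neural tube progenitor-like cells (13 of 108, 6.57 to 19.7) and 68.3% of otic epithelium-like cells (99 of 145, 60.0 to 75.7). An Eya gene was found in 40 of 40 early neuroblast-like, 52 of 52 neuron-like and 120 of 145 otic epithelium-like cells. A Pax gene of the pair was found in 5 of 40, 12 of 52 and 61 of 145 cells of these classes. Six-family and Eya transcripts thus stood together in most neuroblasts and neurons, and a Pax transcript in a minority of them. As every such cell held an Eya gene, the joint counts of 32 and 47 are those of a Six-family gene alone. The joint share in the classes not yet named ran from 31.25% in cluster 10 (15 of 48) to 77.1% in cluster 9 (27 of 35). These shares were not tested between classes.

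The Eya gene of a cell differed between the classes. Eya1 and Eya2 were both found in 27 of 40 early neuroblast-like cells and 39 of 52 neuron-like cells, against 22 of 145 otic epithelium-like cells, and Eya1 stood without Eya2 in 0, 4 and 91 cells of these classes. Within the early neuroblast-like class Eya2 was found in 27 of 27 cells with Neurod1 and no Stmn2 and in 12 of 13 with Stmn2. It was also found in 19 of 19 cells with Neurog1, the factor that starts otic neurogenesis, and in 20 of 21 without it. Six4 was found in 20 of the 27 and 9 of the 13. Per cell, a mean of 3.45 of the 8 genes was found in early neuroblast-like, 3.77 in neuron-like, 1.22 in neural tube progenitor-like and 3.17 in otic epithelium-like cells.

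**Figure D4:**
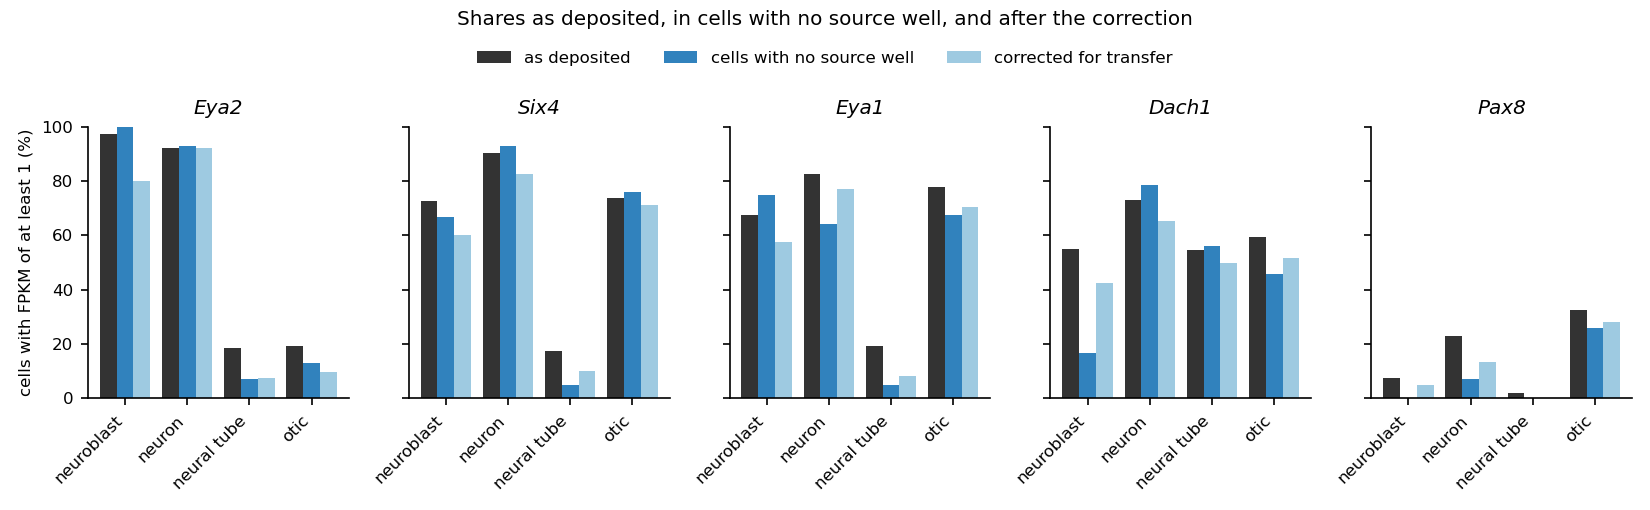
Percentage of cells with an FPKM of at least 1 for 5 of the genes in 4 classes, with bars as deposited, in the cells with no source well and after the correction for transfer between wells. The Eya2 bars stay at 80.0% or more in neuroblasts and neurons and at 19.3% or less in neural tube and otic cells, and the Dach1 bar of neuroblasts stands at 16.7% in the 12 cells with no source well, against 55.0% as deposited.

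Of the 13 other Six-family, Eya, Dach and Pax genes listed, 6 passed the filter on low values. Dach2 averaged 0.89 and 0.39 in neuron-like cells, against 2.002 and 2.56 in the epithelium, and fell by 1.64 (SE 0.36, limma adjusted p = 0.00417, 6 of 6 plates), and like Dach1 it was higher in otic cluster 0 than in clusters 2 and 3 (2.02, SE 0.42, adjusted p = 0.0136, 5 of 6 plates). A further gene of the 6, not reported here, was called higher in neuron-like cells than in the epithelium. In that comparison 5.92% of all genes were higher and 7.69% lower. Between early neuroblast-like cells and the epithelium 0 of the 6 were called, with 2 at an unadjusted p below 0.05. As 4.84% of all genes were called there, a count of 0 in 6 says little. Pax3 (3.42, adjusted p = 7.63e-06) and Pax6 (3.38, adjusted p = 3.26e-06), which pattern the neural tube, were higher in neural tube progenitor-like than in otic epithelium-like cells.

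Of 16 listed cofactors of these proteins 13 had a row and 12 were tested. In neuron-like cells 1 was higher than in the epithelium, the corepressor Tle1 (1.84, SE 0.42, adjusted p = 0.00588, 6 of 6 plates), and 1 lower, the histone deacetylase Hdac1 (-1.26, SE 0.37, adjusted p = 0.0276, 6 of 6 plates). Of all genes tested 5.92% were higher and 7.69% lower there. In early neuroblast-like cells 0 of the 12 were called, where 4.84% of all genes were, with 0 of the 12 at an unadjusted p below 0.05. The median difference of the 12 was 0.17 in neuron-like cells, where that of all genes was -0.11.

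Of 34 genes of placode competence and otic induction 29 were tested. In early neuroblast-like cells 0 were higher and 7 lower than in the epithelium, where 1.27% of all genes were higher and 3.58% lower (list median -0.41, all genes -0.13), among them Tbx1 (-2.203), Sox9 (-2.59) and Gbx2 (-2.52), an otic patterning gene. In neuron-like cells 13 were lower, where 7.69% of all genes were (list median -0.71, all genes -0.11). In otic cluster 0 Gbx2 (3.35), Msx1 (2.76) and Msx2 (2.68) were higher than in clusters 2 and 3, and Etv5, a target of FGF signals, was lower (-1.94, adjusted p = 0.0192).

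The tested genes whose 16 means per class and replicate lay closest to each member were found by Pearson's r, given as a description over means that share libraries and classes. Eya2 was closest to Hes6 (r = 0.98), Ppp1r14a (0.98) and Btbd17 (0.96). Six4 was closest to Fam89a (0.96), Sema6a (0.92) and Smtnl2 (0.89), and Eya1 to Psenen, Six4 and Bcr (0.87, 0.87 and 0.85). Dach1 was closest to Napb, Cenpt and Rtn1 (0.89, 0.87 and 0.87). For Six2, Eya4, Pax2 and Pax8, which were found in fewer cells, the closest genes were Zfp934 (0.86), Rxrg (0.88), Sp9 (0.87) and Ppp2r2b (0.84). Among the members themselves the closest pair was Six4 and Eya1 (0.87), followed by Pax2 with Pax8 (0.67) and with Eya4 (0.67), and Eya2 lay farthest from Pax2 (-0.19).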

How the data were processed

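The authors deposited 1 table of log2(FPKM + 1) values, 19659 rows by 491 cells. Per the labels' protocols, the SMARTer Ultra Low Input kit gave the cDNA and Nextera XT the libraries; per the submitters' processing notes, the tools named are TopHat with Bowtie or Bowtie2, Cufflinks, SAMtools, cutadapt and FastQC, and the build is mm10. FPKM was recovered as deposited log2 values raised to base 2, less 1; sums per cell ran from 150003 to 442047. Read depth is unknown, so no counting floor is given for a value of 0. Rows without a symbol (29) and of repeated identifiers (132) were left out, leaving 19494 genes.

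The 8 genes, the gene lists and the marker lists were chosen with earlier results of these data known. Of 84 markers in 13 lists, 63 were clustered (15 principal components, 15 neighbours, Leiden resolution 1.0; scanpy 1.11.5) into 11 clusters and 8 classes. Doublets were not called: each well was sorted to hold 1 cell. Means of log2(FPKM + 1) per class and replicate were compared with limma 3.58.1 (R 4.3.3; trend, class and replicate, 1 fit over 16 means, Benjamini-Hochberg over the 10197 genes found in at least 5% of cells, 44 markers left out). Classes pair by replicate because all classes of a replicate come from the same sorted plates. The script was tested on simulated data. Shares have exact Clopper-Pearson intervals. Links between wells and the 90th percentile used to correct for them were set after the data were seen. Named genes were the 8 members, called genes of 3 lists, and the 3 genes closest to each member; some listed genes are not reported here. Alternatives covered the pseudocount, filter, scaling, averaging, classes, replicate block and transfer. Gene coordinates are from GENCODE M21 (mm10), promoters from RefSeq.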

Additional observations from a re-analysis of the deposited data

How the results depend on the processing

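The 17 called differences of the 8 genes kept their direction in all 170 recomputed values, and 151 of these also kept the call; the 19 that lost it are given beside the results. Of the 63 differences that were not called, 53 of 654 values passed the threshold and 31 changed sign. The limits are as follows. There are 2 replicates, classes come from the same cells, FPKM gives no depth, cells with no source well are few, and leaving out a replicate gives a value with no test. All 208 values without 1 replicate kept their direction or stayed within the spread. That spread is set by the same 2 replicates, so this check could hardly fail. Some uncalled differences had opposite signs in the replicates, and these are not among the 31. For example, Eya1 differed between neuron-like and early neuroblast-like cells by 1.87 in replicate 1 and -0.30 in replicate 2. The replicate block changed little: without it the calls stayed as they were except that Six2 was called lower in neural tube progenitor-like cells (-1.13, adjusted p = 0.0477) and in otic cluster 0 (-1.31, adjusted p = 0.0432).

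The number of the 8 genes called, 2 between early neuroblast-like cells and the epithelium, was 1 in cells with no source well. Between neuron-like and early neuroblast-like cells it was 0, and 1 without a filter on low values, with upper-quartile scaling, at a Leiden resolution of 0.7 and after the correction for transfer. Between neuron-like and otic epithelium-like cells it was 2, and 1 with a pseudocount of 0.1, with classes by thresholds and in cells with no source well, and 4 without a filter, with means per plate, at a resolution of 0.7 and after the correction. For cluster 9 it was 2, and 1 with log2 taken after averaging FPKM and 4 with means per plate. For cluster 10 it was 3, and 5 with log2 taken after averaging FPKM and after the correction and 0 in cells with no source well. For neural tube progenitor-like cells it was 3, and 0 in cells with no source well. For surface ectoderm-like cells it was 0, and 2 without a filter and with means per plate and 1 with log2 taken after averaging FPKM. For mesenchyme-like cells it was 3, and 5 with means per plate. Between neuron-like and cluster 9 cells it was 0, and 1 without a filter, at a resolution of 1.4 and after the correction. Between otic cluster 0 and clusters 2 and 3 it was 2, and 0 with log2 taken after averaging FPKM and in cells with no source well and 4 after the correction. The counts of 0 are by limma. The cause was not tested.

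The mean number of the 8 genes found per cell was 2.64, and it was 2.90 at an FPKM above 0, 1.76 at an FPKM of at least 10, 2.201 in cells with no source well and 2.19 after the correction (2.55 to 2.72 without 1 replicate). Pax2 was found in 5.91% of cells, and in 7.74% at an FPKM above 0, 0.81% at an FPKM of at least 10 and 5.84% of cells with no source well (5.91% without either replicate).

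The differences that changed sign under another setting were all uncalled. Against the epithelium, early neuroblast-like cells gave 0.12 for Six2 with a pseudocount of 0.1, and for Six4 -0.022 with upper-quartile scaling, -0.54 with classes by thresholds and -0.087 after the correction. Between neuron-like and early neuroblast-like cells Eya2 gave 0.031 with upper-quartile scaling and 0.53 after the correction, Eya4 0.0036 and Pax2 0.076 with classes by thresholds, and in cells with no source well Eya1 gave -0.45 and Eya4 0.0. For cluster 9 Eya1 gave 0.026 with a pseudocount of 0.1 and 0.041 with means per plate, Six4 0.034 with log2 taken after averaging FPKM, 0.25 with means per plate and 0.61 in cells with no source well, and Six2 0.50 in such cells. For neural tube progenitor-like cells Eya2 gave -0.0045 with upper-quartile scaling, -0.048 at a resolution of 1.4, -0.36 in cells with no source well and -0.076 after the correction, and in cells with no source well Dach1 gave 0.55 and Eya4 0.099. For surface ectoderm-like cells Six2 gave 0.14 in cells with no source well. Between neuron-like and cluster 9 cells log2 taken after averaging FPKM gave -0.22 for Eya2 and 9.9e-05 for Pax2, a resolution of 1.4 gave 0.93 for Eya1 and 0.0026 for Pax2, and cells with no source well gave 0.11 for Pax2. Between otic cluster 0 and clusters 2 and 3 Eya2 gave -0.94 with log2 taken after averaging FPKM and -0.023 after the correction, and Six4 0.50 in cells with no source well.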
